A study of Homo sapiens with 4 samples.

Results

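Aminoacyl-tRNA synthetases join each amino acid to its transfer RNA. The genes described here are 38 genes chosen by name: 19 cytosolic enzymes, 16 mitochondrial enzymes and 3 scaffold proteins of the multisynthetase complex, out of 60651 genes in the files. They were followed in ribosome profiling of 4 human leukemia lines, grown in 10% fetal bovine serum, with 1 library per line. K562 is an erythroid-like line from chronic myeloid leukemia, grown in IMDM. THP-1 is a monocytic line, grown in RPMI1640 with 0.05 mM 2-mercaptoethanol. The third library carries the label MOLM13, a monocytic line with altered FLT3, grown in DMEM. HL60 is a promyelocytic line, grown in IMDM. Apart from K562 and HL60, which share a medium, line and medium cannot be told apart.

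With 1 library per line there is no replicate check, no test between lines is possible and no p-value is given. Each value describes a library. K562 held 473 Mb of aligned bases, THP-1 678 Mb, the MOLM13-labelled library 344 Mb and HL60 973 Mb. The most frequent fragment length was 29 bases, and a gene's aligned bases divided by that length are its footprint equivalents. The 95% intervals below are Poisson intervals on these equivalents and cover counting error only. In bulk samples, fewer ribosomes per message and fewer messages per cell cannot be told apart.

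The labels were set against marker genes of each line. K562 had 14822 summed scaled TPM (defined below) of 6 erythroid markers, against 0 in THP-1, 17.3 in the MOLM13-labelled library and 0 in HL60. The 6 monocytic markers summed to 3979 in THP-1, 744 in HL60, 44.5 in K562 and 32.1 in the MOLM13-labelled library. In that library FLT3 and MEIS1 were listed at 0. HOXA9 was highest there, with 29.5 scaled TPM, against 15.7 in THP-1, 3.05 in HL60 and 2.61 in K562. The T cell gene CD3D had 890.6 there, against 49.0 in K562, 3.88 in THP-1 and 3.37 in HL60. The summed T and NK cell markers were 919 there and 3.37 to 52.7 in the other lines, and CD2 and CD3G were listed at 0. The 5 promyelocytic markers summed to 9249 in HL60, 8243 in THP-1, 32.1 in the MOLM13-labelled library and 0 in K562. The 4 B cell markers summed to at most 3.604. The 4 epithelial markers summed to 509 in K562, 376 in the MOLM13-labelled library, 50.0 in THP-1 and 33.1 in HL60. For the MOLM13-labelled library the markers, apart from HOXA9, therefore go against the label, and its deposited file carries another name. This sample is thus called the MOLM13-labelled library, and the counts that use it are also given without it.

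Cytosolic synthetases charge the transfer RNAs that read the nuclear-encoded messages, and a separate set, encoded in the nucleus and imported, charges those of the mitochondrial ribosome. EPRS1, a fused glutamyl- and prolyl-tRNA synthetase, is joined with IARS1, LARS1, MARS1, QARS1, KARS1 and RARS1 and the scaffold proteins AIMP1, AIMP2 and EEF1E1 in the multisynthetase complex. KARS1 and GARS1 supply both compartments from a single gene, and QARS1 has no mitochondrial partner because the mitochondrion amidates a glutamylated transfer RNA in its place. When amino acids run short, uncharged transfer RNA activates the kinase EIF2AK4 (GCN2), ATF4 is translated, and several cytosolic synthetase genes are among the targets known for it.

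Levels are deposited TPM, which divides by transcript length, summed over the transcripts of a gene and divided by a scaling factor per library, and are called scaled TPM. Because they depend on which transcripts the authors' software chose, 2 other measures stand beside them: aligned bases per coding length, and the median coverage of wholly coding exons summed over every gene on the strand. The last was added after the values were seen.

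Cytosolic enzymes stood well above the mitochondrial enzymes in each line. The median cytosolic enzyme had 132.0 scaled TPM in K562, 100.2 in THP-1, 106 for the MOLM13-labelled library and 112 in HL60. The median mitochondrial enzyme had 11.2, 10.0, 10.5 and 16.8 in the same order, which is 11.8-, 10.0-, 10.2- and 6.66-fold lower. With aligned bases per coding length the folds were 6.31, 5.82, 6.52 and 5.37, and with coding-exon coverage 5.96, 4.94, 5.61 and 5.22. All the lines thus had the cytosolic median above the mitochondrial median by each measure, with a smaller gap by the 2 measures that do not use the transcript length. Of the 16 mitochondrial enzymes, 3 in K562, 5 in THP-1, 6 in the MOLM13-labelled library and 7 in HL60 reached the lowest cytosolic enzyme. Together the cytosolic enzymes took 0.866% of the aligned bases on protein-coding genes in K562, 0.680% in THP-1, 0.696% in the MOLM13-labelled library and 0.709% in HL60. The mitochondrial enzymes took 0.104%, 0.0767%, 0.114% and 0.0823%.

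**Figure D1:**
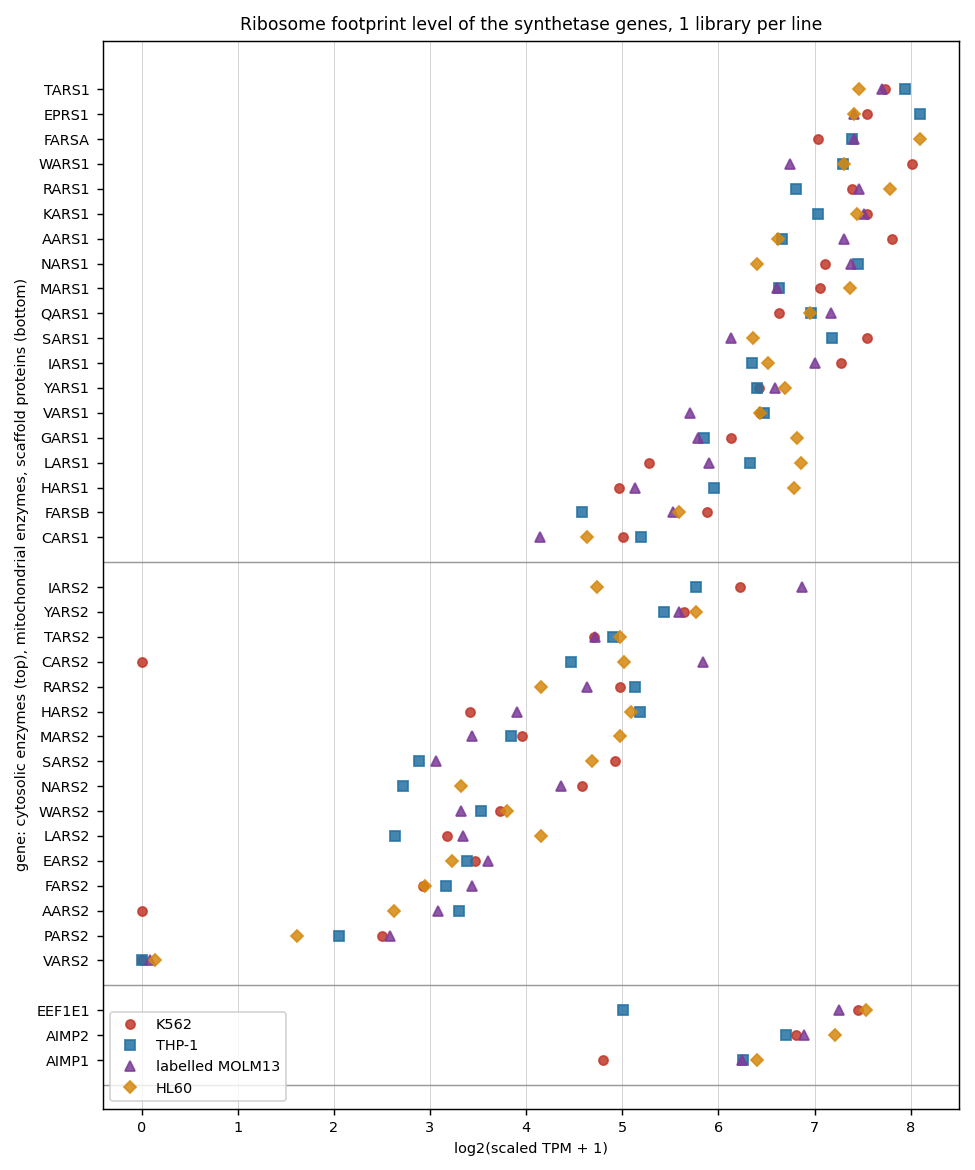
Scaled TPM of every gene on a log2 axis after adding 1, 1 point per line and library, with the cytosolic enzymes above the mitochondrial enzymes and the scaffold proteins. TARS1 and EPRS1 lead, VARS2 stands near 0 in every line, and AARS2 and CARS2 are listed at 0 in K562.

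TARS1, the threonine enzyme, had the highest mean of the cytosolic enzymes, with 212 scaled TPM in K562, 245 in THP-1, 207 for the MOLM13-labelled library and 175 in HL60. EPRS1 had 186, 274, 170 and 169. FARSA, the catalytic chain of the phenylalanine enzyme, had 130, 166, 169 and 273. TARS1 thus varied little, its highest value being 1.40-fold its lowest, while EPRS1 was highest in THP-1 and FARSA in HL60. At the low end stood CARS1, the cysteine enzyme, with 31.2, 35.6, 16.7 and 23.9. FARSB, the second chain of the phenylalanine enzyme, had 58.1, 23.0, 45.1 and 47.3 scaled TPM. HARS1, the histidine enzyme, had 30.3, 61.1, 34.0 and 109.7, the widest range of any cytosolic enzyme at 3.62-fold. HARS1 had 94.3, 82.7, 50.8 and 153.2 by bases per coding length, again highest in HL60, but with K562 above THP-1.

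Among the mitochondrial enzymes, IARS2, for isoleucine, had the highest mean. It had 73.9 scaled TPM in K562, 53.3 in THP-1, 116 for the MOLM13-labelled library and 25.6 in HL60. YARS2, for tyrosine, was flat, with 48.9, 42.3, 47.0 and 53.5. TARS2, for threonine, was as flat, with 25.1, 28.9, 25.4 and 30.4. PARS2, for proline, was lowest among the enzymes with signal in every line, with 4.65, 3.15, 5.00 and 2.07, and rests on 131 to 163 footprint equivalents per library.

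VARS2, for valine, was listed at 0 in K562 and THP-1, at 0.0641 in the MOLM13-labelled library and at 0.104 in HL60. A gene on the same strand, AL669830.1, shares 4073 of the 6467 exon bases of VARS2, and had 17.3, 4.28, 10.3 and 11.5 scaled TPM. Summed over all genes, the whole coding exons of VARS2 held 222, 287, 320 and 465 footprint equivalents, against 0, 0, 2.403 and 8.94 under its own name. The level of VARS2 and its ratio to VARS1 are therefore not read from its own values. SARS2, for serine, shares 1492 of its 3098 exon bases with AC011455.2 in the same way. On its coding exons, all genes together held 371, 398, 206 and 779 footprint equivalents, and SARS2 itself held 359, 95.8, 71.8 and 177. SARS2 thus had 29.3 scaled TPM in K562, 6.38 in THP-1, 7.34 for the MOLM13-labelled library and 24.7 in HL60, but coding-exon levels of 24.0, 25.9, 12.7 and 27.0.

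Each cytosolic enzyme with a mitochondrial partner was next set against the mitochondrial enzyme for the same amino acid, in 17 pairs. EPRS1 and FARS2 each stand in more than 1 pair, and GARS1, KARS1 and QARS1 in none. Without the valine pair, 60 of 62 ratios with signal in both partners were above 1, as were all 62 by bases per coding length. By coding-exon coverage 50 of 54 were above 1. The proline pair, EPRS1 over PARS2, had the widest usable gap, with ratios of 40.04 in K562, 87.0 in THP-1, 33.9 in the MOLM13-labelled library and 81.5 in HL60. By bases per coding length these were 25.8, 56.2, 21.9 and 52.5. FARSA over FARS2 followed with 19.6, 20.8, 17.3 and 40.6, and with 9.06, 22.7, 9.74 and 20.6 per coding length. EPRS1 over EARS2, for glutamate, gave 18.4, 28.97, 15.2 and 20.2, and 6.56, 14.6, 6.56 and 7.74 per coding length. The gap for the glutamate pair thus narrowed by over 1.5 times in each line on the coding scale.

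The narrowest pairs were those of cysteine, isoleucine and tyrosine. YARS1 over YARS2 stayed between 1.73 and 2.03 in scaled TPM and between 1.62 and 1.95 per coding length. By coding-exon coverage the 2 enzymes lay level, at 0.916 to 1.13. IARS1 over IARS2 was 2.07 in K562, 1.51 in THP-1, 1.09 in the MOLM13-labelled library and 3.52 in HL60. By coding-exon coverage it was 1.72, 1.68, 0.829 and 4.19, so the order of the isoleucine pair turned in the MOLM13-labelled library. CARS1 over CARS2 was 1.69 in THP-1, 0.297 in the MOLM13-labelled library and 0.759 in HL60, with CARS2 listed at 0 in K562. The cysteine ratios turned to 1.84, 1.30 and 1.14 per coding length, so which enzyme is higher in the last 2 libraries depends on the measure. The mean length of the CARS2 transcripts that held signal was 645 bases in the MOLM13-labelled library, against 1669.5 in THP-1 and 1593 in HL60.

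**Figure D2:**
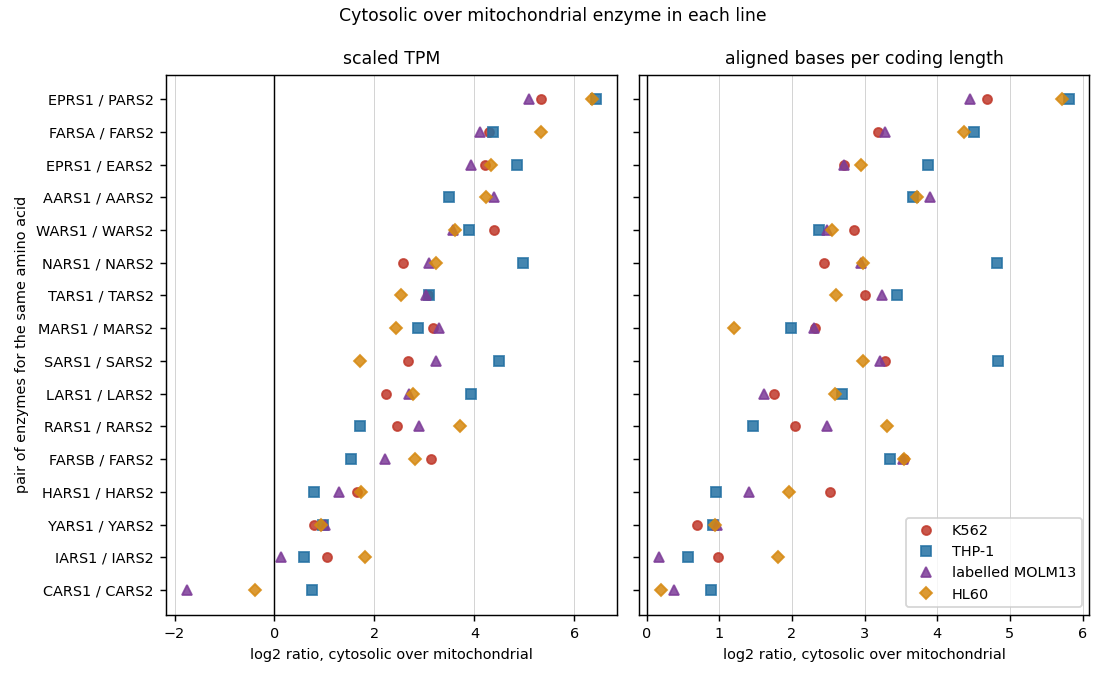
The log2 ratio of each cytosolic enzyme over the mitochondrial enzyme for the same amino acid in each line, from scaled TPM (left) and from aligned bases per coding length (right), without the valine pair. The vertical line marks equal levels; the cysteine pair crosses it on the left and lies right of it on the right.

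Differences between lines were counted with a rule of size. On the scale of log2(scaled TPM + 1), a high gene exceeds every other line by 1 or more (2-fold) and has 600 or more aligned bases in its own line. A low gene falls short of every other line by 1 or more, and each of those 3 lines has 600 or more aligned bases on it. Of the 38 genes, 37 passed the filter of at least 1 scaled TPM in any line, all but VARS2, beside 11803 protein-coding genes in all. In K562, 3 of the genes were low, where 7.65% of all genes were low, and none was high, where 5.46% were high. THP-1 had 1 low gene, against 1.98% of all genes, and none high, against 8.84%. In the MOLM13-labelled library none was high, against 6.7%, and none low, against 3.41%. HL60 had 1 high, against 4.41%, and 1 low, against 5.59%. Over all lines 1 of 38 was high, beside 25.4% of all genes, and 5 were low, beside 18.6%. At a 4-fold distance none was high, beside 8.52% of all genes, and 3 were low, beside 6.92%. None of the 19 cytosolic enzymes was called in any line. With the MOLM13-labelled library left out, 3 were high, beside 32.8% of all genes, and 9 were low, beside 27.3%. AARS1 and NARS2 were then also high in K562. The AARS1 call rests on scaled TPM: per coding length AARS1 had 189 in K562, 188 in THP-1 and 119 in HL60. By coding-exon coverage it had 191, 244 and 158. The added low genes were LARS1 and HARS2 in K562 and FARSB and SARS2 in THP-1. Per coding length LARS1 had 104.3 in K562, 127.5 in THP-1 and 192.6 in HL60, which misses the rule. By coding-exon coverage SARS2 had 24.0, 25.9 and 27.0 in these lines, so THP-1 was not lowest. HARS2 in K562 and FARSB in THP-1 remained lowest of these lines by both other measures.

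The spread of each gene over the lines was described by its log2 range. The median range from the lowest to the highest line was 1.04 over the 37 genes, and 54.1% of them spanned at least 2-fold. Over all 11803 genes these values were 1.66 and 78.2%. Enzymes of the multisynthetase complex had a median range of 0.757, with 1 of 7 spanning at least 2-fold, and other cytosolic enzymes 1.06, with 9 of 12. Mitochondrial enzymes had 1.52, with 8 of 15. LARS1 was the complex enzyme that spanned more than 2-fold, with 37.7 scaled TPM in K562, 79.2 in THP-1, 59.0 for the MOLM13-labelled library and 114.9 in HL60. By bases per coding length it had 104.3, 127.5, 102.6 and 192.6, and its range fell to 1.88-fold. Of the other cytosolic enzymes, AARS1, CARS1 and WARS1 likewise fell below 2-fold on that scale, to 1.58-, 1.45- and 1.87-fold. FARSA, FARSB, GARS1, HARS1, NARS1 and SARS1 stayed above 2-fold. No test of the difference in range was run.

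AARS2 and CARS2, the mitochondrial alanine and cysteine enzymes, were listed at 0 in K562 by all 3 measures. All 3 measures rest on the same transcript estimates, and scaled TPM and bases per coding length of a gene are 0 together. AARS2 (chr6:44298731-44313347) had 8.88 scaled TPM in THP-1, 7.46 in the MOLM13-labelled library and 5.18 in HL60. CARS2 (chr13:110641412-110713603) had 21.1, 56.4 and 31.4. K562 thus stands apart from 3 lines that all had signal, on 400 to 854 footprint equivalents for AARS2 and 406 to 1583 for CARS2. No fold is given against a value listed at 0. In K562, 258 of the 11803 genes, 2.19%, were listed at 0 with at least 5 scaled TPM in each other line, against 18 in THP-1, 107 in the MOLM13-labelled library and 32 in HL60. EEF1G, a subunit of the elongation factor that delivers charged transfer RNA, was among the genes listed at 0 in K562, with 112 in THP-1, 1.53 in the MOLM13-labelled library and 0.780 in HL60, although every cell uses it.

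AIMP1, a scaffold protein of the complex (chr4:106315544-106349456), had 26.9 scaled TPM in K562 (95% interval 25.7 to 28.1), against 75.4 in THP-1, 75.0 in the MOLM13-labelled library and 83.6 in HL60. The mean transcript length behind these values was 5164 bases in K562 and 2488 to 2582 bases in the other lines. AIMP1 had 154 bases per coding length in K562, against 216, 196 and 244, still lowest in K562 but no longer low by the rule. AIMP2, the scaffold that bridges to KARS1, had 110.7 in K562, 103 in THP-1, 118 in the MOLM13-labelled library and 147.0 in HL60.

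EEF1E1, also known as AIMP3, a small scaffold protein (chr6:8073360-8102559), had 31.2 scaled TPM in THP-1 (95% interval 28.2 to 34.4). It had 173 in K562 (167 to 180.4), 151 in the MOLM13-labelled library (142 to 160.3) and 185 in HL60 (179.5 to 189.7). Its level in THP-1 lay 2.24 log2 units below the nearest other line. THP-1 had 40.1 by bases per coding length, against 328, 185 and 335, and by coding-exon coverage 45.9, against 577, 197 and 465. EEF1E1 was thus low in THP-1 by all 3 measures, the last of which includes the readthrough gene EEF1E1-BLOC1S5 that shares 393 of its exon bases.

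MARS2, the mitochondrial methionine enzyme (chr2:197705369-197708395), had 30.6 scaled TPM in HL60 (29.5 to 31.7), against 14.6 in K562, 9.86 in the MOLM13-labelled library and 13.4 in THP-1. Its transcript is a single exon, so transcript choice does not enter, and it stayed high in HL60 by bases per coding length, with 56.2 against 25.7 in K562, 23.6 in THP-1 and 16.5 for the MOLM13-labelled library. IARS2 (chr1:220094132-220148041) had 25.6 scaled TPM in HL60 (24.7 to 26.6), against 73.9 in K562, 53.3 in THP-1 and 116 for the MOLM13-labelled library. By bases per coding length it had 31.9 in HL60, against 88.7, 64.3 and 132 in the same order, which just misses the rule, and by coding-exon coverage 35.4, against 132, 80.1 and 189. MARS2 and IARS2 lay just inside the rule, 1.02 and 1.03 log2 units from the nearest line. Just outside in scaled TPM lay FARSB, 0.94 below in THP-1, and HARS1, 0.83 above in HL60. So did CARS2, 0.82 above in the MOLM13-labelled library, and LARS2, 0.81 above in HL60. Per coding length LARS2 had 32.1 in HL60, beside 33.4 for the MOLM13-labelled library, 30.9 for K562 and 19.8 for THP-1. By coding-exon coverage these were 42.2, 40.5, 39.4 and 28.3. LARS2 stood on a mean transcript length of 4781 bases in HL60 and 9910 to 10049 elsewhere. CARS2 per coding length was highest in HL60, at 31.9, against 21.1 for the MOLM13-labelled library.

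Counted by bases per coding length, 1 gene was high, beside 24.6% of all genes, and 3 were low, beside 20.8%: AARS2 and CARS2 in K562 and EEF1E1 in THP-1. By coding-exon coverage none was high, beside 31.3%, with MARS2 and PARS2 not measured, and 8 were low, beside 25.7%. AARS2, CARS2 and EEF1E1 were again among them, with IARS2 in HL60, FARS2 and NARS2 in THP-1, and VARS1 and HARS2 in the MOLM13-labelled library. NARS2, the mitochondrial asparagine enzyme, had 5.56 scaled TPM in THP-1, against 23.0 in K562, 19.5 in the MOLM13-labelled library and 8.98 in HL60.

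**Figure D3:**
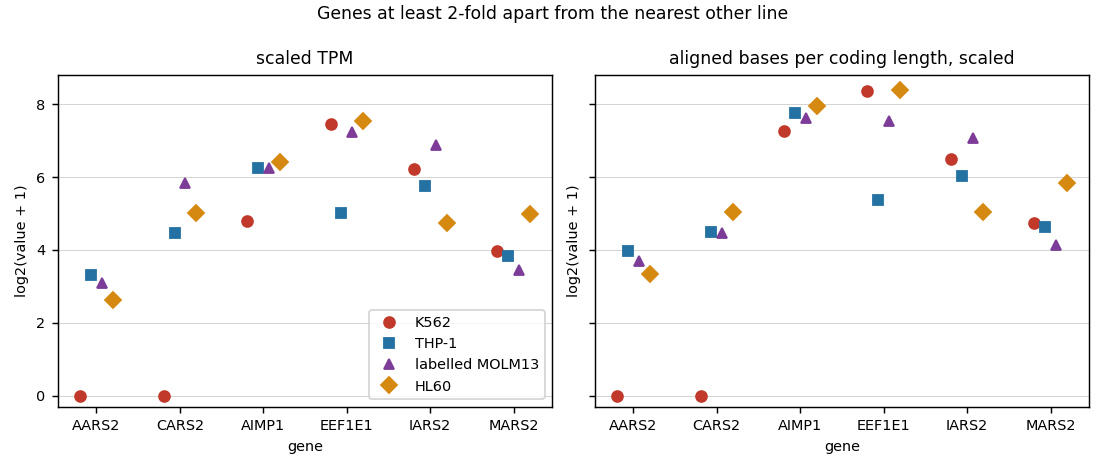
The 6 genes that were high or low in a line, as log2(value + 1) of scaled TPM (left) and of aligned bases per coding length (right), 1 point per library. K562 is at 0 for AARS2 and CARS2 and THP-1 is lowest for EEF1E1 in both panels, while AIMP1 in K562 moves up towards the other lines on the right.

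FARSA and FARSB encode the 2 chains of cytosolic phenylalanyl-tRNA synthetase, which holds equal numbers of each. In scaled TPM FARSA exceeded FARSB by 2.24-fold in K562, 7.23-fold in THP-1, 3.75-fold in the MOLM13-labelled library and 5.78-fold in HL60. The FARSB values stood on a transcript of 6761 bases with a coding length of 1767. Per coding length the ratio of FARSA over FARSB was 0.776, 2.23, 0.847 and 1.77, and by coding-exon coverage it was 0.587, 2.25, 0.693 and 2.09. The order of the chains thus turned in K562 and the MOLM13-labelled library on both coding scales, and FARSA remained higher in THP-1 and HL60.

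**Figure D4:**
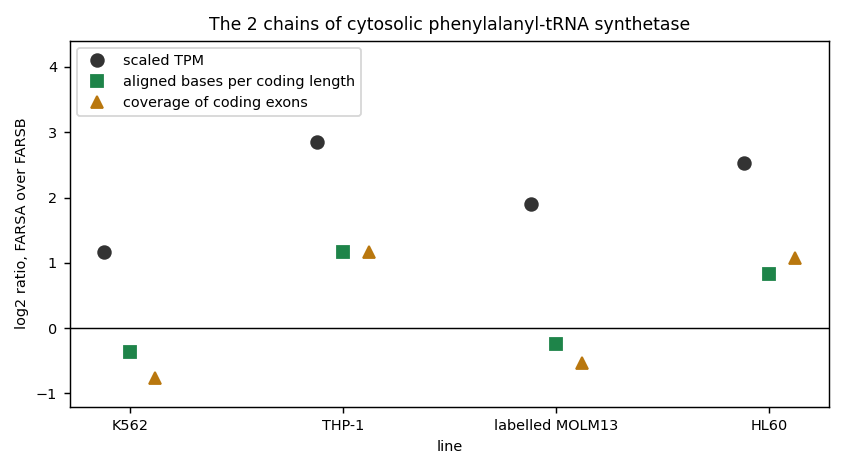
The log2 ratio of FARSA over FARSB in each line by 3 measures of level, 1 symbol per measure. All 4 scaled TPM ratios lie above 0, and both coding measures lie below 0 in K562 and the MOLM13-labelled library and above 0 in THP-1 and HL60.

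Of the enzymes without a mitochondrial partner, QARS1, the glutamine enzyme, had 98.1 scaled TPM in K562, 123 in THP-1, 143 for the MOLM13-labelled library and 123 in HL60. GARS1, the glycine enzyme, had 69.1, 56.7, 54.3 and 112. The mean transcript length behind GARS1 was 7460, 4100, 6506 and 2555 bases, and by bases per coding length it had 241, 109, 157 and 139.5. GARS1 was thus highest in HL60 by scaled TPM and highest in K562 per coding length. WARS1, the tryptophan enzyme, which interferon is known to induce, had 258, 157, 106 and 158. Per coding length WARS1 had 240, 146, 128 and 212, on mean transcript lengths of 1266, 1270, 1734 and 1763 bases. K562 was highest on both scales, with HL60 closer to it per coding length. The 11 measured interferon genes had their highest median in THP-1, at 1.83 log2 units above the mean of the other lines. Their lowest was in K562, at -1.01. Of the 12 interferon genes on the list, 6 were listed at 0 in K562, against 2 in THP-1, 3 in the MOLM13-labelled library and 1 in HL60.

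KARS1, the lysine enzyme (chr16:75627474-75648643), makes its mitochondrial form by including an extra exon with its own start codon. That exon, number 2 on the minus strand at chr16:75644283-75644462, is absent from the cytosolic form, whose start codon lies in exon 1. The coding parts of the exons that separate the forms are shown because the share of each form rests on them, with the start codons in capitals, read from GENCODE release 29 transcripts on GRCh38 at chr16:75644283-75644428 for the mitochondrial and chr16:75647578-75647639 for the cytosolic form.
KARS1 mitochondrial start: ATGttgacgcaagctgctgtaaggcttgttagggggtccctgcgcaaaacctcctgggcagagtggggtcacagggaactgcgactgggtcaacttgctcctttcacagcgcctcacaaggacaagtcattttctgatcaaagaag
KARS1 cytosolic start: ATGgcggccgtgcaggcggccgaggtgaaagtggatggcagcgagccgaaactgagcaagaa

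KARS1 itself was even over the lines, with 186 scaled TPM in K562, 130.3 in THP-1, 182 for the MOLM13-labelled library and 173 in HL60. The deposited transcript of the mitochondrial form held 85.1% of KARS1 TPM in K562, against 3.93% in THP-1, 1.51% in the MOLM13-labelled library and 1.61% in HL60. Coverage of the exon itself gave another picture. Its coverage was 3.65% of that of the median shared exon in K562 (95% interval 2.24 to 5.62), 9.60% in THP-1 (7.08 to 12.7), 6.54% in the MOLM13-labelled library (4.13 to 9.85) and 5.80% in HL60 (4.45 to 7.43). The library with the largest share of the mitochondrial transcript thus had the lowest relative coverage of the exon that marks it, on 20.3 footprint equivalents. Its share by transcript in K562 is not read as a level of the mitochondrial form.

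**Figure D5:**
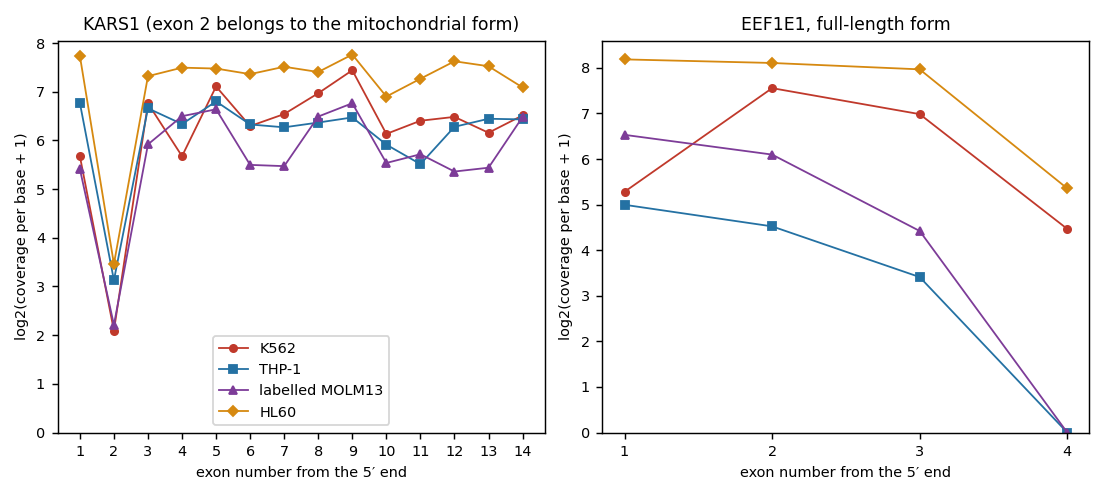
Coverage per base as log2(value + 1) along the exons of KARS1 (left, exons 1 to 14) and of the full-length form of EEF1E1 (right), 1 line of points per library, not scaled for depth. Exon 2 of KARS1 dips in all 4 libraries, and exon 4 of EEF1E1 is listed at 0 in THP-1 and the MOLM13-labelled library.

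EEF1E1 also has a short form whose last exon runs on past the splice site of exon 3. Its coding bases that the full-length form lacks lie at chr6:8090117-8090185 on the minus strand and are shown because they separate the forms, with the stop codon in capitals, read from the same transcripts.
EEF1E1 short form end: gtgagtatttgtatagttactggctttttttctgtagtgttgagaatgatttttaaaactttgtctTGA
The short form held 95.3% of EEF1E1 TPM in THP-1 and 99.1% in the MOLM13-labelled library, against 23.9% in K562 and 24.2% in HL60. Exon 4 of the full-length form had a coverage of 21.1 in K562 and 39.9 in HL60 and was listed at 0 in the other libraries. The last exon of the short form shares 29.3% of its bases with exon 3 of the full-length form, so no value here checks the share of the short form independently of the transcript estimates.

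A wholly 5′ untranslated exon was annotated for 7 of the genes. As a ratio to coding coverage, its ribosome coverage had a median of 0.430 for K562, 0.720 for THP-1, 0.105 for the MOLM13-labelled library and 0.468 for HL60. Over all genes with such an exon the medians were 0.288, 0.756, 0.294 and 0.548. IARS1 had ratios of 0.966, 0.997, 0.887 and 0.875, close to its coding level in every line. VARS1 had 0.614, 1.18, 0.426 and 0.846, and AARS1 0.430, 0.885, 0.451 and 0.468. WARS1 was at the other end with 0.0015, 0.028, 0 and 0.012, and that exon of AIMP1 was listed at 0 in all 4 libraries. LARS2 had 0.263, 0.720, 0.105 and 0.468, and FARS2 0.488, 0.185, 0 and 0.127. THP-1 thus had the highest ratio for IARS1, VARS1, AARS1, LARS2 and WARS1, as it did for the median of all genes, while FARS2 was highest in K562.

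Promoters were searched for TGATGCAA, the core of the composite site that ATF4 and C/EBP proteins are known to bind, on both strands from 250 bases before to 50 bases after the RefSeq start on GRCh38.p14. A promoter was matched for 33 genes: 16 cytosolic enzymes, 14 mitochondrial enzymes and 3 scaffold proteins. The 8 letters were present in 6 of 16 cytosolic promoters, 37.5%, and in none of the mitochondrial or scaffold promoters. They occur in 0.923% of 27305 promoters of all genes and in 0.517% of the 9486 promoters of the protein-coding genes tested. With any base at the sixth position (TGATGNAA, which includes the first motif) the same 6 cytosolic genes and YARS2 matched, beside 3.67% of all promoters. The 30 bases around each match, on the strand of the gene, show that the letters begin within 15 bases of the start in 5 genes and 187 bases before it in AARS1. Capitals mark the match, which reads TTGCATCA where it lies on the other strand.
AARS1, chr16:70289675-70289704, minus: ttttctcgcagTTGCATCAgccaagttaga
CARS1, chr11:3057407-3057436, minus: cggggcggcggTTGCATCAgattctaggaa
IARS1, chr9:92293692-92293721, minus: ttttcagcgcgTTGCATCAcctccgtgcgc
MARS1, chr12:57488053-57488082, plus: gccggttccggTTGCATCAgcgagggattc
NARS1, chr18:57621804-57621833, minus: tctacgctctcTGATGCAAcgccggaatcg
TARS1, chr5:33440956-33440985, plus: gcgcctttcgaTTGCATCAgctggtccagc

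The 6 enzymes with the letters had a median of 145 scaled TPM in K562, 99.05 in THP-1, 142 for the MOLM13-labelled library and 93.7 in HL60, and the 10 matched cytosolic enzymes without them 149, 127, 125 and 140.2. Against the mean of the other lines, the median log2 difference of the 6 was 0.27 in K562, -0.04 in THP-1, 0.14 in the MOLM13-labelled library and -0.35 in HL60. For the 10 without the letters it was 0.01, -0.09, -0.19 and 0.17. AARS1, the alanine enzyme, had 222 in K562, 100.2 in THP-1, 158 in the MOLM13-labelled library and 97.1 in HL60. NARS1, for asparagine, had 137, 175, 166 and 83.8, and IARS1 had 153, 80.6, 127 and 90.2. MARS1, for methionine, went the other way in HL60, with 132, 97.9, 96.9 and 165. In scaled TPM HL60 was the lowest line for AARS1, NARS1 and TARS1, and the highest for MARS1. Per coding length AARS1 had 189 in K562, 188 in THP-1, 177 in the MOLM13-labelled library and 119 in HL60. K562 and THP-1 thus lay level on that scale, and the mean transcript length behind AARS1 was 2384 bases in K562 and 5240 in THP-1. By coding-exon coverage AARS1 had 191, 244, 181 and 158 in the same order, highest in THP-1. Per coding length MARS1 had 128 in K562 and 129 in HL60, so these lines lay level on that scale. By coding-exon coverage it had 166 and 181. The mean transcript length behind MARS1 was 2525 bases in K562 and 1964 in HL60. MARS1 shares 355 exon bases with DDIT3 on the opposite strand, and the files were made with no strand option.

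The wider amino acid response was read from 28 measured genes of a list of 30. Of 24 promoters matched for the list, 1 held the 8 letters (4.17%), beside 0.517% for the protein-coding genes tested. TGATGNAA was present in 5 of the 24 (20.8%), beside 1.76%. The median difference of the 28 genes from the mean of the other lines was 0.46 in K562, -0.06 in THP-1, 0.11 in the MOLM13-labelled library and -0.47 in HL60. The medians over all genes were -0.10, 0.05, 0.12 and -0.21. Of the 28 genes, K562 had 3 high and none low, beside 5.46% and 7.65% of all genes. THP-1 had 2 high and 2 low, beside 8.84% and 1.98%, the MOLM13-labelled library none high and 1 low, beside 6.7% and 3.41%, and HL60 1 high and 3 low, beside 4.41% and 5.59%. TRIB3 lay furthest from the nearest other line. It was low and listed at 0 in the MOLM13-labelled library, with 9.60 scaled TPM in K562, 11.9 in THP-1 and 14.8 in HL60. ASNS, asparagine synthetase, had 107 scaled TPM in K562, against 7.03 in THP-1, 11.3 in the MOLM13-labelled library and 44.1 in HL60. PYCR1, of proline synthesis, had 91.8 in K562, against 20.1, 18.5 and 12.5, and CHAC1, which degrades glutathione, was high in K562 too. PCK2, a mitochondrial carboxykinase, had 5.28 in HL60, against 22.6, 44.1 and 38.7. ATF4 itself had 32.1 in K562, 50.5 in THP-1, 50.5 in the MOLM13-labelled library and 57.0 in HL60. Per coding length ATF4 was level over the lines, at 60.4, 62.8, 68.1 and 62.5, so no order of the lines is read for it. The kinase EIF2AK4 had 5.35, 2.05, 7.44 and 1.11, lowest in HL60.

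Over the 19 cytosolic enzymes the median log2 difference from the mean of the other lines was 0.04 in K562, -0.06 in THP-1, -0.10 in the MOLM13-labelled library and 0.07 in HL60. Over the 16 mitochondrial enzymes it was -0.02, -0.08, 0.03 and 0.21. In HL60 11 of 19 cytosolic and 10 of 16 mitochondrial enzymes were above the mean of the other lines. Each of these medians changed sign under at least 1 alternative of scaling, measure or gene choice, and no direction is read from them.

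Other steps of mitochondrial translation are given as values, since lists this short cannot be set apart from the share of all genes called. Of 10 mitochondrial translation factors, 2 were low in K562, beside 7.65% of all genes: MTIF3, an initiation factor listed at 0 there, and MTRF1L, a release factor. In HL60 1 was high, beside 4.41%: MRRF, the recycling factor. GATB, a subunit of the amidotransferase that makes mitochondrial glutaminyl-tRNA, had 34.3 scaled TPM in HL60, 3.05 in K562, 12.4 in the MOLM13-labelled library and 14.6 in THP-1. Its partners QRSL1 and GATC were not called, QRSL1 with 8.44 scaled TPM in HL60, 9.22 in K562, 9.78 in THP-1 and 10.4 for the MOLM13-labelled library. Per coding length GATB had 43.4 in HL60, against 12.4 in K562, 19.9 in the MOLM13-labelled library and 14.1 in THP-1, highest in HL60 but with K562 close to THP-1.

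Other steps around charging are likewise given beside the 25.4% of all genes that were high and the 18.6% that were low in any line. Of 7 eIF2 kinases and sensors, EIF2AK3 (PERK) was low in K562, listed at 0, and PPP1R15A, a phosphatase subunit, was high in THP-1. Of 5 genes that deliver charged transfer RNA in the cytosol, only EEF1G was called, high in THP-1, and that call rests on the values at or near 0 in the other lines given above and is not read as a difference. SEPSECS, of selenocysteine charging, was listed at 0 and low in the MOLM13-labelled library, and none of the 3 genes of end processing and export was called.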

How the data were processed

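The authors deposited StringTie files, 1 per library. The deposited values are TPM and coverage per transcript and coverage per exon, held with other attributes in a column of mixed content, per the file headers. Per the submitters' processing notes, the tools were StringTie 2.1.5, STAR 2.7.8a, Bowtie2 2.4.2 and Trim Galore 0.6.6, and the build was hg38. The headers name GENCODE release 37 and no strand option. Deposited TPM sums to 1000000 per library, and read counts were not used here.

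Transcript TPM was summed per gene and divided by a factor per library, its median ratio to the geometric means of 3751 genes that reach a TPM of 10 everywhere (0.837, 1.01, 1.12 and 1.05 for K562, THP-1, the MOLM13-labelled library and HL60). Aligned bases are coverage times length, 473, 678, 344 and 973 Mb in the same order. Coding regions came from GENCODE release 29. Levels below 1 scaled TPM in every line were left out of counts over all genes, and a pseudocount of 1 was added before log2. The rule of size was run on simulated data with counting error only. Those data held no error of transcript choice and no planted change near 2-fold, so neither was tested. Named genes are those the size rule called, the 3 highest and lowest enzymes of each compartment and the 3 widest and narrowest pairs. Dual-compartment and complex genes and WARS1 are also named. Of each context list, up to 3 genes are named by their distance to the nearest other line. ASNS, PCK2, ATF4, EIF2AK4 and QRSL1 are named outside that choice. NARS2, LARS1, VARS1, SARS2, AARS1 and others beside a measure were named after their values were seen. Exon overlap with another gene affects 24 of the 38 genes, 9 of them on the same strand. Promoter sequences are from RefSeq on GRCh38.p14. The genes and lists were chosen with earlier results of these data known. A list of proofreading and release genes is not reported here. Work used bedtools 2.31.1, Matplotlib 3.10.9, SciPy 1.17.1, pandas 2.3.3, NumPy 2.4.6 and Python 3.11.15.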

Additional observations from a re-analysis of the deposited data

How the results depend on the processing

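No paired analysis was possible because each line has 1 library. The ratio of coding density to whole-transcript density was not run, and the scaling between libraries does not enter a ratio within a library. Values below are given in the order K562, THP-1, the MOLM13-labelled library and HL60 where 4 stand together, and the cause of each change was not tested.

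The log2 difference of cytosolic over mitochondrial medians stayed positive under every alternative run. It was 2.62, 2.49, 2.65 and 2.395 with bases per coding length, 3.10, 2.75, 3.04 and 3.08 with bases not divided by length, and 2.64, 3.00, 2.74 and 2.45 with annotated coding transcripts only. It was 2.54, 2.27, 2.45 and 2.35 with coding-exon coverage. A pseudocount of 5 gave 3.08, 2.81, 2.85 and 2.42, and a pseudocount of 0.1 gave 3.56 in K562, 3.31 in THP-1 and 2.73 in HL60. Without the genes that share exon bases it was 3.31, 2.97, 3.56 and 2.35. Without those listed at 0 it was 3.09 in K562, and without GARS1, KARS1 and QARS1 it was 2.58 in HL60.

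Over all lines 1 gene was high, beside 25.4% of all genes, and 5 were low, beside 18.6%. The high count was 2 with deposited TPM, beside 26.9%, and 2 with TPM rescaled over protein-coding genes, beside 29%. It was 0 with a pseudocount of 5, beside 12.8%, with coding-exon coverage, beside 31.3%, and with a 4-fold distance, beside 8.52%. Without the MOLM13-labelled library 3 were high, beside 32.8%, and with a 1.5-fold distance 8, beside 44%. The low count was 3 with bases per coding length, beside 20.8%, with bases not divided by length, beside 22.2%, and with a 4-fold distance, beside 6.92%. It was 6 with deposited TPM, beside 19.7%, 7 with TPM rescaled over protein-coding genes, beside 22.2%, and 4 with a pseudocount of 5, beside 7.69%. Coding-exon coverage gave 8, beside 25.7%. Without the MOLM13-labelled library 9 were low, beside 27.3%, and with a 1.5-fold distance 11, beside 33.8%. Without the genes listed at 0 it was 3, and without those sharing exon bases 1, each beside 18.6%.

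Deposited TPM shifts the median of all genes to -0.39 in K562, 0.07 in THP-1, 0.32 in the MOLM13-labelled library and -0.14 in HL60. The medians of the cytosolic enzymes against the other lines then became -0.30 in K562 and 0.12 in the MOLM13-labelled library, and those of the mitochondrial enzymes -0.27 and 0.20. TPM rescaled over protein-coding genes gave 0.29, -0.28, 0.0691 and -0.12 for cytosolic and 0.20, -0.28, 0.16 and 0.0609 for mitochondrial enzymes. Bases per coding length gave 0.16 in K562, -0.32 in the MOLM13-labelled library and 0.23 in HL60 for cytosolic and 0.17 in K562 for mitochondrial enzymes. Bases not divided by length gave -0.37 in the MOLM13-labelled library and 0.30 in HL60 for cytosolic, and 0.14 in K562, -0.19 in THP-1 and 0.36 in HL60 for mitochondrial enzymes. Coding-exon coverage gave 0.17, 0.15 and -0.27 in K562, THP-1 and the MOLM13-labelled library for cytosolic, and 0.41 in HL60 for mitochondrial enzymes. Without the genes that share exon bases the cytosolic medians were 0.28 in THP-1, 0.0842 in the MOLM13-labelled library and -0.28 in HL60, and the mitochondrial ones 0.34 in K562, 0.41 in the MOLM13-labelled library and -0.76 in HL60. A pseudocount of 0.1 gave 0.15 for mitochondrial enzymes in the MOLM13-labelled library.

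FARSA over FARSB was 0.776, 2.23, 0.847 and 1.77 per coding length and 0.587, 2.25, 0.693 and 2.09 by coding-exon coverage, turned in K562 and the MOLM13-labelled library. The median of CARS1 over CARS2 turned to 1.30 per coding length, against 0.759. The limits set by depth were not compared between genes; the shallowest library held 344 Mb and the deepest 973 Mb. Leaving out a replicate was not possible.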
